A study of Mus musculus with 10 samples.

Results

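The genes described here mark epithelial and mesenchymal cell states, and they are 10 of the 26335 genes in the deposited table, chosen by symbol: Cdh1, Epcam, Cdh2, Vim, Fn1, Snai1, Snai2, Twist1, Zeb1 and Zeb2. All 10 were found, each in a single entry. They were measured by RNA sequencing in an mSCLC line, mouse small cell lung cancer cells from a primary lung tumor of a conditional model started by Cre delivered to the airways. The 5 control libraries come from cells given DMSO and the 5 stiripentol libraries from cells given 250 μM stiripentol, an antiseizure medication, both for 48 h in RPMI with serum, and the series compares these groups. All libraries come from 1 cell line, and nothing in the sample records says which libraries are separate cultures, so the p-values below measure the spread between these libraries.

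Epithelial cells hold together through E-cadherin (Cdh1) and the adhesion molecule EpCAM (Epcam), whereas mesenchymal cells carry N-cadherin (Cdh2), the intermediate filament vimentin (Vim) and the matrix protein fibronectin (Fn1). In an epithelial-mesenchymal transition, transcription factors of the Snail family (Snai1, Snai2), the Zeb family (Zeb1, Zeb2) and Twist1 lower the epithelial genes and favour the mesenchymal ones, and Snail and Zeb factors bind the E-box CAGGTG in promoters such as that of Cdh1. Small cell lung cancer lines range from neuroendocrine, often epithelial-like cells to variants without neuroendocrine genes that carry mesenchymal ones.

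The E-box was looked for on both strands (CAGGTG or its reverse complement CACCTG) in the 250 bases before the RefSeq transcription start, and 17.2% of 32817 such mouse windows held it. A window was at hand for 5 of the 10 genes. In Vim and in each of the Zeb2 windows these letters were not found. The windows of Epcam, Snai1 and Twist1 are shown because these genes are, in the results below, the one almost without reads, one that fell and the one read mostly in controls 1 to 3. They are on the plus strand of GRCm38.p6, at chr17:87635729-87635978 for Epcam, chr2:167537945-167538194 for Snai1 and chr12:33957421-33957670 for Twist1, read 5′ to 3′, and capitals mark the E-box.
Epcam: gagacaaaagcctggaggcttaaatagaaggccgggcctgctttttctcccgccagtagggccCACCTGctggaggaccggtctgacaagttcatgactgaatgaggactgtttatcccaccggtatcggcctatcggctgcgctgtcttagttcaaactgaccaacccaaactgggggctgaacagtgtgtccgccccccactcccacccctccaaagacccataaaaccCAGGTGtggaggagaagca
Snai1: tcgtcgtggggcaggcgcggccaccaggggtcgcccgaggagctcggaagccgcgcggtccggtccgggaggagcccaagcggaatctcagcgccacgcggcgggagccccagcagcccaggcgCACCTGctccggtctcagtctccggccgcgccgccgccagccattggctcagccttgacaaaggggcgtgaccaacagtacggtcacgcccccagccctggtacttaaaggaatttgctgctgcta
Twist1: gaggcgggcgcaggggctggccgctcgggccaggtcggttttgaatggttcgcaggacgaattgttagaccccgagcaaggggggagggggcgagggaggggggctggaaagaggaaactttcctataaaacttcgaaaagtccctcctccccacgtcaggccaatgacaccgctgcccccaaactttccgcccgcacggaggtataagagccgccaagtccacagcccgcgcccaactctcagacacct
The Epcam window held 2 E-boxes, starting at -187 and -19 from the start site, and the Snai1 window held 1, starting at -126. The Twist1 window held none. GC content was 56.4% in the Epcam window, 70.0% in the Snai1 window and 62.4% in the Twist1 window, against a median of 52.4% over all windows. A match in these letters is a description of the sequence, since no binding was measured.

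Values are log2 CPM, the reads of a gene scaled to the read total of its library on a log2 scale, as deposited. The libraries held 22375625 to 65299372 reads in control, with a median of 63607057, and 55015760 to 60670901 in stiripentol, with a median of 57977596. Within each group the libraries formed 2 sets. Controls 4 and 5 and stiripentol 1 and 2 are called the pair here, and controls 1 to 3 and stiripentol 3 to 5 the trio. Over the tested genes, libraries of a group correlated at 0.983 to 0.997 within a set and at 0.920 to 0.939 between sets. A gene without reads is listed at -4.82 in controls 1 to 3 and at -4.74 in the other 7 libraries, so normalization differed between these libraries. Within the trio, every control thus differs from every stiripentol library in normalization as well as in treatment, and these cannot be told apart there. The sets carry no label. Which control set belongs with which stiripentol set was taken from the order of the libraries in a table of the study and from how their values deviate together. Results are therefore also given for each set for most of the 10 genes and for the medians of the 4 lists below. Single genes of those lists are mostly given over 10 libraries only, and their changes can differ in size between the sets. Of the neuroendocrine markers of small cell lung cancer, Insm1 had at most 10 reads in any library and Syp had 2 to 20, while Ncam1 had 2627 to 9215 and Yap1, a gene of the variant without neuroendocrine markers, had 2978 to 11459. The epithelial keratins Krt8 and Krt18 had at least 23469 and 31300 reads in every library.

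Groups were compared with limma on the 12306 genes that averaged more than 0 log2 CPM, with Benjamini-Hochberg adjustment, and adjusted p values under 0.05 were called. Of the 10 genes, 7 were tested and Cdh1, Twist1 and Epcam lay below the filter. Of the 7, Cdh2 and Snai1 were called lower with stiripentol and 0 were called higher, with the same 2 genes at an unadjusted p under 0.05. Over all tested genes 14.1% were called lower and 13.6% higher, and 5130 of the 12306 had an unadjusted p under 0.05. The control and stiripentol libraries did not overlap in 1 of the 7, Snai1, against 27.2% of all tested genes. The median change of the 7 was 0.04 on the log2 scale, and that of all tested genes was -0.06. In bulk RNA, fewer cells that express a gene and less of its RNA per cell cannot be told apart.

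**Figure D1:**
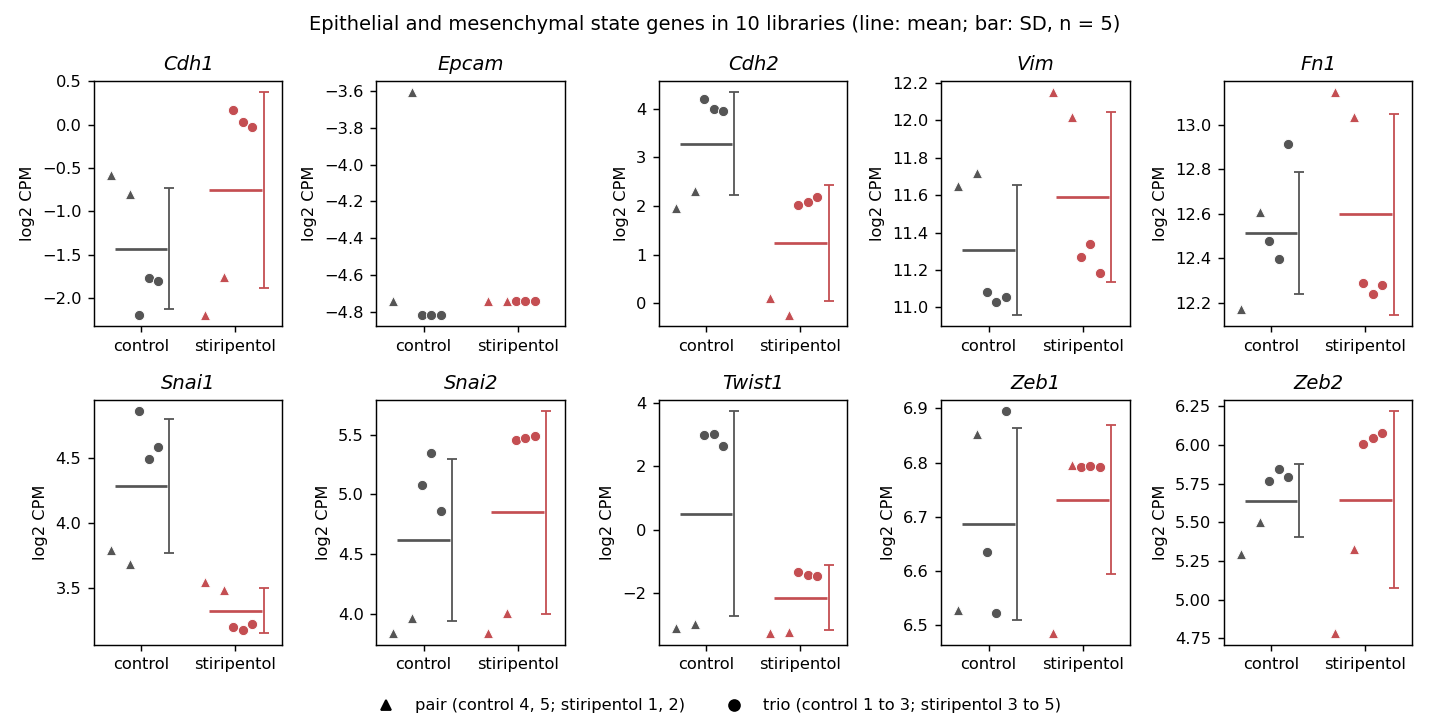
Log2 CPM of the 10 genes in each library (y axis, a separate scale per gene), with controls in grey and stiripentol in red, triangles for the pair and circles for the trio. Lines are means and bars are SD (n = 5), left out for Epcam, whose points stand for 0 reads but for 1 read in control 5; the groups are apart in Snai1, while in Twist1, Cdh1 and Cdh2 the triangles and circles of a group lie apart.

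Of the epithelial adhesion genes, Epcam was almost without reads. It had 1 read in control 5 and 0 reads in the other 9 libraries, where a count of 0 allows up to 0.0459 to 0.0545 CPM by library. A difference between groups was therefore not detectable at this depth, and no fold is given. Cdh1 (chr8:106603351-106670246, plus strand, GRCm38 with GENCODE M21, as are all gene positions here) had 12, 15, 16, 40 and 12 reads in controls 1 to 5 and 11, 15, 63, 59 and 52 in stiripentol 1 to 5. In log2 CPM the controls stood at -2.19, -1.77, -1.80, -0.59 and -0.80, and the stiripentol libraries at -2.19, -1.76, 0.17, 0.03 and -0.03. The highest values were the stiripentol libraries of the trio, and the lowest were shared by both groups. The mean was -1.43 ± 0.70 in control and -0.75 ± 1.13 in stiripentol (SD, n = 5), a difference of 0.68 that did not pass an exact permutation test (two-sided, p = 0.246, 252 arrangements). The change was -1.28 in the pair and 1.98 in the trio, so the sign depended on the set as matched here. Matched the other way, pair controls averaged -0.69 against 0.06 in the stiripentol trio, and trio controls -1.92 against -1.97 in the stiripentol pair.

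Cdh2, the cadherin of mesenchymal and neural cells, fell with stiripentol. Its log2 CPM was 4.20, 3.99, 3.95, 1.97 and 2.31 in controls 1 to 5 and 0.11, -0.24, 2.02, 2.09 and 2.20 in stiripentol 1 to 5, which are 1202, 921, 984, 246 and 110 reads against 63, 47, 233, 252 and 250. Control 4 lay below the stiripentol trio and control 5 just above it, so the groups overlapped, while within each set every control was above every stiripentol library. The mean went from 3.28 ± 1.06 to 1.23 ± 1.20 (SD, n = 5), a log2 change of -2.05 (SE 0.63, 95% CI -3.45 to -0.65), or 0.241 times the control level, with a limma adjusted p of 0.035. As the sets are matched here, the change was -2.20 in the pair and -1.95 in the trio, with limma adjusted p of 1.41e-05 and 9.07e-06. These 2 changes depend on that match. Matched the other way, pair controls averaged 2.14 against 2.10 in the stiripentol trio, and trio controls 4.05 against -0.07 in the stiripentol pair. A set term for that match gave -2.08 (limma adjusted p 0.0351). Most genes were called within a set: 46.5% of all tested genes were called lower and 25.7% higher in the pair, and 27.0% lower and 37.7% higher in the trio. In contrast, controls of the trio exceeded controls of the pair by 1.91, and the stiripentol trio exceeded the stiripentol pair by 2.17, differences between sets about as large as the change itself. The call was lost when control 1, 2 or 3 or stiripentol 1 or 2 was left out (log2 change -1.68 to -1.88, limma adjusted p 0.0763 to 0.0823). In the 7 libraries of one normalization, without controls 1 to 3, the change was -0.90 (limma adjusted p 0.451). There, pair controls alone face stiripentol libraries of both sets, so set and normalization cannot be told apart.

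Vim (chr2:13573927-13582826, plus strand) had 75462 to 204551 reads in control and 128033 to 275959 in stiripentol, and it was not called over 10 libraries. Its log2 CPM was 11.08, 11.03, 11.06, 11.65 and 11.72 in controls 1 to 5 and 12.15, 12.02, 11.27, 11.34 and 11.18 in stiripentol 1 to 5. Within each set the stiripentol libraries were all above the controls, but controls 4 and 5 were above the stiripentol trio. Over 10 libraries the log2 change was 0.28 (SE 0.24, 95% CI -0.24 to 0.81) (limma adjusted p 0.381). In the pair it was 0.40 (limma adjusted p 0.00295) and in the trio 0.21 (0.0361), and with a term for the set the same change of 0.28 was called (0.00962), as were 23.6% of all tested genes in that direction. With the sets matched the other way, the set term gave 0.30 and no call (limma adjusted p 0.340).

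Fn1 (chr1:71585520-71653200, minus strand) was at 12.48, 12.40, 12.91, 12.17 and 12.61 log2 CPM in controls 1 to 5 and at 13.15, 13.04, 12.29, 12.24 and 12.28 in stiripentol 1 to 5, from 139840 to 490996 and from 273873 to 550009 reads. The stiripentol pair was above every control and the stiripentol trio lay below 4 of the 5 controls. The change over 10 libraries was 0.08 (SE 0.23, 95% CI -0.41 to 0.58, limma adjusted p 0.799). It was 0.70 in the pair, where it was called (limma adjusted p 0.000601), and -0.33 in the trio, where it was not (0.0719). The difference between the sets depends on how they are matched and was not tested. On the opposite strand over Fn1, Apol7d had 191 reads in all controls beside 1610569 of Fn1.

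**Figure D2:**
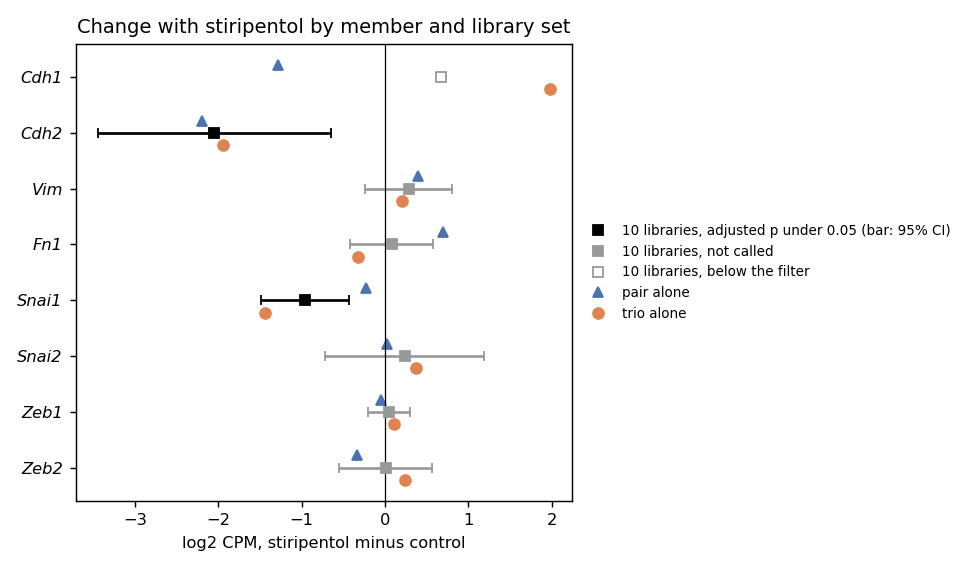
Log2 change, stiripentol minus control (x axis), of 8 of the 10 genes, without Epcam and Twist1, which had few or no reads in one of the sets. Squares are the change over 10 libraries with its 95% confidence interval (black where called, grey where not, open for Cdh1 below the filter), triangles the change in the pair and circles that in the trio; Cdh2 and Snai1 lie left of 0 in both sets, and Cdh1 runs from -1.28 to 1.98.

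Among the transcription factors, Snai1 fell. Snai1 encodes Snail, a zinc finger repressor of Cdh1. The gene lies at chr2:167538195-167542814 on the plus strand. It stood at 4.87, 4.49, 4.59, 3.79 and 3.69 log2 CPM in controls 1 to 5 and at 3.55, 3.49, 3.21, 3.18 and 3.22 in stiripentol 1 to 5, from 1902, 1302, 1528, 879 and 288 reads against 708, 648, 531, 539 and 512. Every control was above every stiripentol library. The mean went from 4.29 ± 0.52 to 3.33 ± 0.18 (SD, n = 5), a log2 change of -0.96 (SE 0.24, 95% CI -1.48 to -0.43), or 0.515 times the control level, with a limma adjusted p of 0.0149. As the sets are matched here, the change was -0.22 in the pair (limma adjusted p 0.172) and -1.45 in the trio (3.49e-05). This difference in size depends on the match and was not tested. Matched the other way, pair controls averaged 3.74 against 3.20 in the stiripentol trio, and trio controls 4.65 against 3.52 in the stiripentol pair. A set term for that match gave -0.83 (limma adjusted p 0.00187). Without controls 1 to 3, in the libraries of one normalization, the change was -0.41 and not called (limma adjusted p 0.150). After quantile normalization it was -0.81 (limma adjusted p 0.0645).

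Snai2 (chr16:14705852-14709385, plus strand), the gene of the related repressor Slug, was at 5.08, 5.34, 4.86, 3.84 and 3.96 log2 CPM in controls 1 to 5 and at 3.84, 4.01, 5.45, 5.47 and 5.49 in stiripentol 1 to 5. The trio was high and the pair low in both groups, by 1.20 in control and 1.55 in stiripentol. The change over 10 libraries was 0.23 (SE 0.43, 95% CI -0.71 to 1.18, limma adjusted p 0.700). As the sets are matched here, it was 0.02 in the pair and 0.37 in the trio. The latter was called on its own (limma adjusted p 0.0224), as were 37.7% of all tested genes in that direction. These changes by set depend on the match. Matched the other way, pair controls averaged 3.90 against 5.47 in the stiripentol trio, and trio controls 5.10 against 3.92 in the stiripentol pair.

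Twist1 (chr12:33957671-33959829, plus strand), a basic helix-loop-helix factor, divided the controls. Controls 1 to 3 had 516, 470 and 394 reads, controls 4 and 5 had 5 and 2, and stiripentol 1 to 5 had 4, 4, 21, 20 and 18. In log2 CPM this is 2.99, 3.03, 2.64, -3.11 and -2.98 against -3.27, -3.23, -1.32, -1.43 and -1.46. Thus the 3 controls of the trio were above all other libraries, and controls 4 and 5 were below the stiripentol trio. The difference of means was -2.65 and did not pass an exact permutation test (two-sided, p = 0.127, 252 arrangements), nor limma without the filter (adjusted p 0.235). Within the trio the change was -4.28, and in the pair both groups had at most 5 reads a library, too few for a fold.

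Zeb1 and Zeb2, zinc finger and homeodomain repressors of epithelial genes, were not called over 10 libraries. Zeb1 was at 6.63, 6.52, 6.90, 6.53 and 6.85 log2 CPM in controls 1 to 5 and at 6.48, 6.80, 6.79, 6.79 and 6.79 in stiripentol 1 to 5, and among the 7 tested genes it was the one in which the sets were closest. Its change was 0.04 (95% CI -0.21 to 0.30, limma adjusted p 0.786), so the interval holds changes up to 0.30 in size. Zeb2 was at 5.76, 5.85, 5.79, 5.29 and 5.50 in controls 1 to 5 and at 4.78, 5.33, 6.00, 6.05 and 6.08 in stiripentol 1 to 5. Its lowest and highest values both belonged to stiripentol libraries. The change was 0.01 (95% CI -0.55 to 0.57, limma adjusted p 0.986). As the sets are matched here, it was -0.34 in the pair (limma adjusted p 0.0884) and 0.24 in the trio (0.00752). The trio change was called, as were 37.7% of all tested genes in that direction. Matched the other way, pair controls averaged 5.40 against 6.04 in the stiripentol trio, and trio controls 5.80 against 5.06 in the stiripentol pair. Genes on the opposite strand lie over Zeb1 and Zeb2, and the strand setting of the counting is not given in the sources used here. Summed over the controls, Gm10125 had 165 reads beside 27854 of Zeb1, and Zeb2os had 348 beside 13920 of Zeb2. In the stiripentol libraries Gm10125 had 42 reads beside 31012, and Zeb2os had 515 beside 15363.

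The genes with the profile most like that of a member were ranked by Pearson correlation of log2 CPM over the 10 libraries, which share their set and group. For Cdh2 they were E2f3 and Pcdh18 (each r = 0.993), for Vim they were Cda (r = 0.998), Hpcal1 (0.993) and Fkbp7 (0.991), and for Fn1 they were Fchsd2 (0.951), Gemin8 (0.939) and St3gal1 (0.936). These are descriptions over 10 points that fall into sets.

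The wider pathway was described with 4 lists that leave out the 10 genes, chosen with earlier results of these data known. Of 44 epithelial genes (keratins, claudins, tight junction and desmosome genes, epithelial transcription factors), 24 were tested, 3 were called lower and 1 higher, and the median change was -0.12. The shares over all tested genes were 14.1% lower and 13.6% higher. Krt7, a keratin of simple epithelia, fell by 0.81 (SE 0.14, limma adjusted p 0.00240), the tight junction scaffold Tjp1 fell by 0.56 (0.0167) and the keratin Krt8 fell by 0.36 (0.0202). Elf3, an epithelial transcription factor, rose by 1.37, from 3.76 ± 0.79 to 5.14 ± 0.26 (SD, n = 5, limma adjusted p 0.0137). The median was -0.48 in the pair and 0.34 in the trio, where that of all tested genes was -0.25 and 0.08, and 11 of its 24 genes had opposite signs in the sets, against 37.0% of all tested genes. Of 17 adherens junction genes 12 were tested, 2 were called lower and 0 higher, beside 14.1% and 13.6% of all tested genes. An unadjusted limma p under 0.05 was found in 5 of the 12, beside 5130 of all 12306 tested genes. The protocadherin Pcdh7 changed by -3.22 (limma adjusted p 0.00754). Vinculin (Vcl), which ties cadherins and integrins to actin, changed by -0.91 (0.00119). The list's median was -0.29 over 10 libraries, -0.64 in the pair and 0.03 in the trio, and 7 of its 12 genes had opposite signs in the sets.

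**Figure D3:**
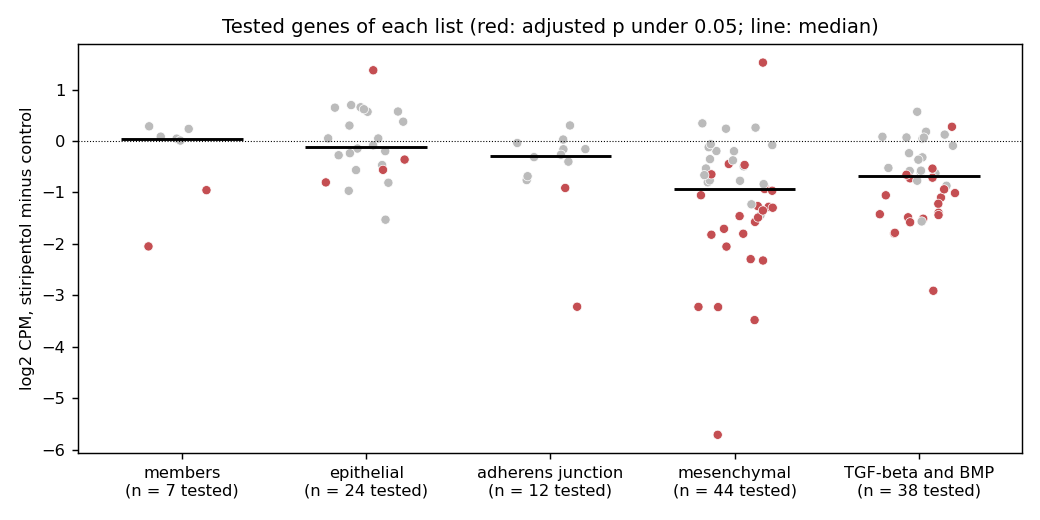
Log2 change, stiripentol minus control (y axis), of each tested gene of the 10 genes and of the 4 lists, red where called by limma and grey where not, with the median as a line. The medians are 0.04 for the 10 genes, -0.12 for epithelial, -0.29 for adherens junction, -0.93 for mesenchymal and -0.69 for TGF-beta and BMP genes.

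Of 53 mesenchymal genes (matrix, contractile and surface genes), 44 were tested, 24 were called lower and 1 higher, with a median of -0.93. Among all tested genes 14.1% were called lower and 13.6% higher. The falls were led by Col3a1, a fibrillar collagen, at -5.71 (limma adjusted p 0.000746), the microfibril gene Fbn1 at -3.48 (0.000322) and Thbs1, the gene of thrombospondin, at -3.23 (0.000239). Cdh11, a cadherin of mesenchymal cells, rose by 1.52, from -0.05 ± 0.11 to 1.47 ± 0.28 (SD, n = 5, limma adjusted p 0.000974), opposite in direction to Cdh2. The list's median was -1.18 in the pair and -0.69 in the trio, where the median of all tested genes was -0.25 and 0.08. Of 7 fibroblast markers, all of them also on the mesenchymal list, 5 were tested and 3 were called lower, Pdgfra (1293 to 7626 reads a library), Pdgfrb (2186 to 12400) and Col1a2 (66 to 807). Pdgfra changed by -0.12 in the pair and -2.03 in the trio, Pdgfrb by -1.21 and -1.68, and Col1a2 by -1.42 and -2.88. Dcn was not called (limma adjusted p 0.557), with 1.76 in the pair and a negative change in the trio, nor was Col1a1 (0.529), with -2.63 in the pair and 0.86 in the trio. Thy1 and Lum had at most 1 and 3 reads. The summed level of the 7 was 346 to 490 CPM in control and 148 to 184 CPM in stiripentol, and its part in the change of the mesenchymal list was not tested. Of leukocyte markers Ptprc and Itgam had at most 3 reads in any library, while the sum over the list was 4.30 to 18.3 CPM in control and 55.3 to 103 CPM in stiripentol, mostly Cd68, a lysosomal gene that rose by 3.21 (limma adjusted p 0.000819). Endothelial markers summed to at most 1.16 CPM in control and 6.27 CPM in stiripentol.

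The TGF-beta and BMP pathways, known inducers and modulators of this transition, were described by 40 ligands, receptors, Smad proteins and targets. Of these 38 were tested, 18 were called lower and 1 higher, beside 14.1% and 13.6% of all tested genes. Their median change was -0.69. The ligand Bmp2 fell by 2.91 (limma adjusted p 0.0134), the ligand Gdf11 by 1.80 (0.0187) and Pmepa1, a target and feedback inhibitor of TGF-beta signalling, by 1.79 (0.00777). Smad2, the gene of a signal transducer of TGF-beta, rose by 0.28 (limma adjusted p 0.0459). The list's median was -1.24 in the pair and -0.40 in the trio, beside -0.25 and 0.08 for all tested genes. When the libraries of each group and set were averaged first, leaving 2 values against 2, limma called 0 of the 12306 genes, these lists and the 10 genes included, at an adjusted p under 0.05.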

How the data were processed

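RNA from cells of the primary tumor mSCLC line was analysed in 5 control and 5 stiripentol libraries, grouped by the titles in the sample records. The authors deposited a table of log2 CPM values, for which their methods name GENAVi. The submitters' processing notes name mm10, and the aligner and annotation are not given in the sources used here. The methods name Lexogen QuantSeq 3′ mRNA libraries and the sample records TruSeq total RNA, so no levels per length were compared between genes. The dose is from the methods. The group means, p-values and ratios that the authors also deposited were not used.

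Whole reads were recovered for 100% of values (tolerance 0.1 read, tested up to 10000 reads), and they give counting error only. The deposited log2 values were tested with limma 3.58.1 (R 4.3.3, mean-variance trend) for genes with a mean above 0. The method was tested on simulated counts of independent libraries, without library sets or a normalization difference. That simulation cannot show how the method behaves where libraries form sets, as they do here. Genes below this filter had two-sided exact permutation tests (Python 3.11.15, scipy 1.17.1), chosen after seeing the data. Positions are from GRCm38 with GENCODE M21, and promoters from RefSeq.

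The members and lists were chosen with earlier results of these data known. List genes named are the 3 largest falls and rises called per list; the marker genes and the genes overlapping Zeb1 and Zeb2 were named beside the results they touch. The results of some genes that these rules name are not reported here. Alternatives were a replicate block, each library left out, the library sets as a term, alone or averaged, other scalings, no filter, pseudocounts of 0.1 and 1 CPM, and limma voom on the recovered reads. The set term with the sets matched the other way and the 7 libraries of one normalization were added after seeing the data. Those 7 libraries hold no control of the trio.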

Additional observations from a re-analysis of the deposited data

Results flagged for a closer look

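The largest differences of direction between the library sets were in Cdh1 and Fn1. The log2 change of Cdh1 was -1.28 in the pair and 1.98 in the trio, and in each set every stiripentol library moved the same way relative to the controls. The log2 change of Fn1 was 0.70 in the pair (0.699) and -0.33 in the trio (-0.327). In both genes the difference between the sets was not tested. It rests on unlabelled clusters of libraries and on how control sets were matched to stiripentol sets.

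In 22 groups of 5 values, the gap between an end value and its neighbour was compared with Dixon's critical value of 0.71, which chance passes in about 1.1 of 22, and 3 passed. Zeb1 was at 6.48 log2 CPM in stiripentol 1, below the other 4 stiripentol libraries. Epcam was at -3.61 log2 CPM in control 5, which is a single read. Control 5 held 22375625 reads, fewer than any other control.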

How the results depend on the processing

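Snai1 kept its direction in all 23 alternatives and its call in 19, and Cdh2 kept its direction in all 23 and its call in 14. The number of the 10 genes called lower, 2 over 10 libraries, ranged from 1 to 2 when 1 library was left out. It was 1 with the replicate block, in the pair alone, after quantile normalization and with no filter, and 0 with the libraries of a set averaged and in the 7 libraries of one normalization. The number called higher, 0 over 10 libraries, was 1 with the set term, 2 in the pair alone and 3 in the trio alone.

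Epithelial calls, 4 over 10 libraries, were 3 to 8 when 1 library was left out, 13 with the set term, 18 in the pair, 19 in the trio, 8 with quantile normalization, 8 with voom, 10 with the sets matched the other way and 7 in the 7 libraries. Adherens junction calls, 2 over 10 libraries, were 5 with the set term, 11 in the pair, 6 in the trio and 7 with the sets matched the other way. TGF-beta and BMP calls, 19 over 10 libraries, were 11 with the block, 32 in the pair and 9 in the 7 libraries. With the sets averaged, each of the 4 lists, the mesenchymal list included, had 0 calls. Over all genes, 1740 lower and 1674 higher calls became 1062 and 1020 with the block, 3336 and 2908 with the set term, 5726 and 3158 in the pair and 3322 and 4637 in the trio.

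Signs turned in genes that were not called over 10 libraries. When 1 library was left out, the log2 change of Zeb2 ranged from -0.0999 to 0.223 and that of Fn1 from -0.0532 to 0.183. Zeb2 was -0.34 (-0.342) in the pair, -0.0511 with the sets averaged or matched the other way and -0.00567 with voom. Zeb1 was -0.0511 in the pair, Fn1 was -0.327 in the trio and Vim was -0.0937 in the 7 libraries. The controls among those 7 are all of the pair. In Vim they averaged 11.69 log2 CPM, against 12.08 in the stiripentol pair and 11.26 in the stiripentol trio. The cause of these turns was not tested.

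The replicate numbers of the labels do not pair the libraries. Deviations from the group means of same-numbered libraries correlated at -0.240 to 0.061. Numbers 1 and 2 join a control of the trio to a stiripentol library of the pair, and numbers 4 and 5 do the reverse. A table of the study lists the control libraries in another order. With this replicate block Cdh2 was no longer called (-2.05, limma adjusted p 0.108) while Snai1 was (-0.96, 0.0276). Quantile normalization moved the median change of all tested genes from -0.06 to 0.05. With no filter the limma adjusted p of Cdh2 was 0.0639. Depth limits Epcam, Cdh1 and the pair libraries of Twist1, which had few reads.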
